A study of Mus musculus with 2031 samples.

Results

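AST1 cells are one of the astrocyte subtypes that the study found by clustering single cells of the adult mouse brain. The cells described here are those that the study's list of cells assigns to AST1, 657 of the 2030 cells with counts in the series. Cortex gave 57 of them in suspension 1 and 55 in suspension 2, and hippocampus gave 545, spread almost evenly over its suspensions 1 and 2. All cells came from C57BL/6J mice at postnatal day 56, with no transgene and no treatment. Each cortical suspension was made from 1 of 2 littermates, and each hippocampal suspension was pooled from 4 littermates, a different litter for each. Tissue was dissociated with papain, myelin was reduced on a Percoll gradient, and cells that carried the astrocyte antigen ACSA-2 but neither the oligodendrocyte antigen O1 nor the dead-cell dye 7-AAD were sorted 1 per well. The Smart-seq2 libraries carried no tags on single molecules, so that counts are reads of amplified cDNA. The comparison asked which genes differ in level between AST1 cells of hippocampus and of cortex, that is, whether cells given the same subtype name are alike in both areas. Area, litter and pooling cannot be told apart, and the plates of each suspension held cells of that suspension only. AST1 had itself been delimited by clustering these counts, so that cells of the areas were already selected to be alike in the genes that drove the clustering.

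Astrocytes take up glutamate and potassium, couple to one another through gap junctions, supply neurons with lactate and lipoproteins, and release proteins that act on synapses. GFAP, the intermediate filament protein by which astrocytes are commonly stained, is abundant in white matter and hippocampus and sparse in most of the cortical grey matter. Astrocytes of the hippocampus and the cortex both descend from radial glia of the dorsal forebrain, and they carry different sets of transcription factors and signalling genes in the adult.

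Counts were summed over the AST1 cells of a suspension, because those cells share their mice and their preparation, and levels are given as CPM, read counts brought to an equal total for every sum after TMM adjustment. CPM is not scaled to gene length, so levels are compared between suspensions and not between genes. The sums held 86705123 and 77349813 gene counts in cortex and 421590638 and 387918253 in hippocampus, and every AST1 cell had at least 600758. Differences are log2 fold changes, hippocampus minus cortex, with the standard error of the fit (SE), n = 2 suspensions per area. Markers of astrocytes were high in every suspension. The 10 markers summed to between 45655 and 50438 CPM in the 4 suspensions, and 0 of the 10 passed the test between areas. *Slc1a3*, the glial glutamate transporter GLAST, was at 8582 and 9071 CPM in cortex and 10141 and 10445 CPM in hippocampus. *Aldoc*, an aldolase of astrocytes, was at 14360.4 and 13793 CPM against 13554 and 14227 CPM, and the ranges overlapped.

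Markers of other cells were far lower than those of astrocytes. Neuronal markers summed to 23.4 and 29.4 CPM in cortex and 42.8 and 42.3 CPM in hippocampus, with 9, 9, 3 and 5 of the 15 genes at 0. Oligodendrocyte markers summed to 365.5 and 309.97 CPM against 515.5 and 597.4 CPM, with 5, 7, 3 and 1 of the 12 genes at 0, and most of that sum was *Cnp*, a myelin enzyme (log2 difference 0.77, SE 0.18, adjusted p = 0.299 in edgeR's quasi-likelihood test, 0.0406 with the replicate block and 0.0450 in DESeq2). Markers of oligodendrocyte precursors summed to 118.2 and 125.9 CPM against 183.1 and 213.3 CPM. Markers of choroid plexus and ependyma summed to 37.8 and 21.3 CPM against 39.7 and 61.1 CPM, with 10, 10, 9 and 8 of 12 genes at 0, and leptomeningeal markers to 27.8 and 21.1 CPM against 45.1 and 30.5 CPM, with 8, 8, 9 and 7 of 11 at 0. All 5 of these lists lay higher in both hippocampal sums, together with the genes that lay higher there, and their part in those differences was not tested. Endothelial markers had the highest sums of these other cells, 699.3 and 869.07 CPM in cortex and 817.9 and 679.57 CPM in hippocampus, with 6, 4, 4 and 5 of 10 genes at 0. They overlapped between areas, as did microglial and mural markers. *Gfap* and *Agt* were at or below 0.03 CPM in the sums of mural cells of the same suspensions.

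Of 2488 genes with a count in over 25% of the AST1 cells of either area, 2 were called higher in hippocampus at a Benjamini-Hochberg adjusted p under 0.05 in edgeR's quasi-likelihood test, 0.0804% of those tested, and 0 were called lower (0%). At an unadjusted p under 0.05, 5.75% of the genes lay higher and 4.7% lower. DESeq2 called 82 genes, 41 in each direction, and limma called 1. The 2 called genes were *Cd38* and the pseudogene *3000002C10Rik*. Both entered the test only through hippocampus, where they were higher, since fewer than 25% of cortical AST1 cells held a count. A gene that enters in this way is already selected to differ, and 18.7% of the tested genes passed the limit in 1 area only. Both hippocampal sums lay above both cortical sums for 546 genes (21.9%) and below them for 487 (19.6%). The median difference over all genes was −0.01, and −0.035 with library totals alone. TMM takes most genes to be unchanged, so a median near 0 does not itself show that the areas were level. The quartiles were −0.22 and 0.23, so that most genes lay close to the median. Only 29 genes lay more than 1 log2 unit higher in hippocampus and 32 more than 1 lower. Suspensions of the areas with the same number shared library preparation dates, and with that number as a block 29 genes were called higher (1.17%) and 23 lower (0.924%), among them both genes called without it. That fit leaves fewer degrees of freedom for the spread between suspensions. Its very small p-values therefore do not measure how closely suspensions agreed.

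**Figure D1:**
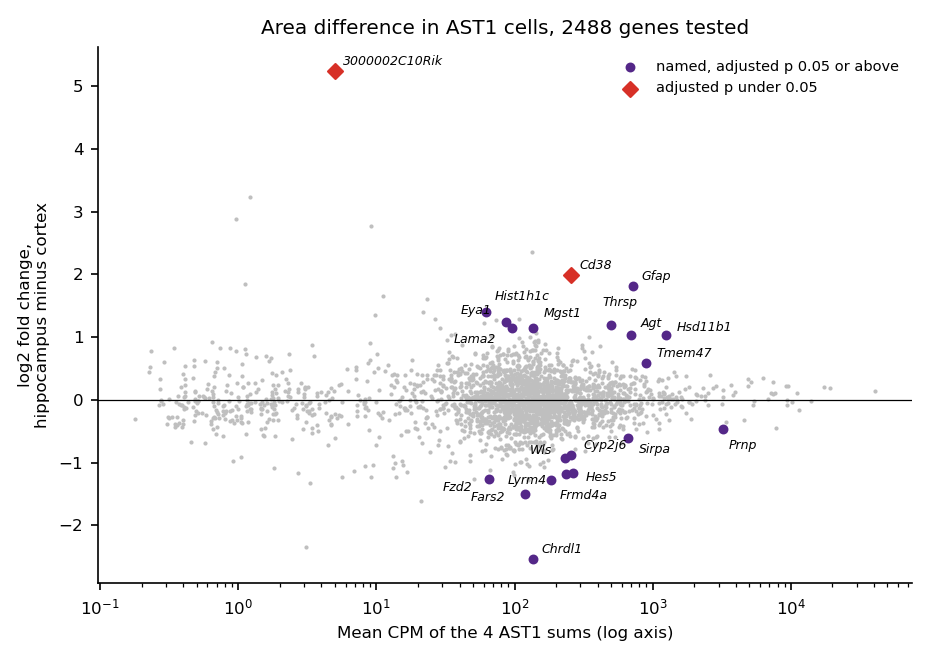
The log2 fold change between areas (hippocampus minus cortex) of the 2488 genes tested in AST1 cells against their mean CPM over the 4 sums, on a log axis; red diamonds mark the 2 genes that passed and purple points the other named genes. Most genes lie near 0, *Cd38* at 1.99 and *3000002C10Rik* at 5.24 passed, and *Chrdl1* at −2.53 is the lowest of the named genes.

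*Cd38* was higher in the hippocampal cells. It encodes an ectoenzyme that breaks down NAD+ and makes cyclic ADP-ribose, a messenger that releases calcium, and lies on chromosome 5 at 43868553 to 43912375 on the plus strand (GRCm38, ENSMUSG00000029084.5). In cortex the suspensions had 104.6 and 102.8 CPM and in hippocampus 380.1 and 442.3 CPM, that is 103.7 ± 1.24 and 411.2 ± 43.97 CPM (SD, n = 2 each). The areas did not overlap, and *Cd38* rose 3.96-fold (log2 difference 1.99, SE 0.20, adjusted p = 0.0320 in edgeR's quasi-likelihood test, and 2.4e-10 with the replicate block). The share of cells with a count differed as well, at 19.3% and 14.5% of the cortical AST1 cells (95% Wilson intervals 11.1 to 31.3% and 7.56 to 26.2%, which cover counting error only) and 46.1% and 50.7% of the hippocampal ones. Among cells with a count, the medians were 544.9 and 710.4 CPM for cortical and 703.6 and 741.4 CPM for hippocampal cells, so the levels in such cells overlapped between areas. In these sums, fewer cells with the RNA and less RNA per cell give the same value. The counts of single cells do not fully separate them, since a cell with little of the RNA can yield no count. The cortical medians rest on 11 and 8 cells. A single cell held 23.3% and 24.3% of the cortical sums and under 3% of each hippocampal sum. The call did not hold in every fit, although the difference stayed between 1.74 and 2.22, or between 1.31 and 3.52 in the subsets by reverse transcription block or switching oligo. Its adjusted p was 0.169 without hippocampal suspension 2, 0.107 with hippocampal cells drawn down to the number in cortex, 0.201 in limma, 0.115 with the other subtypes in the fit and 0.136 to 0.745 with lower or no limits on the cells that hold a count.

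*3000002C10Rik* was chosen for description after its values were seen, since the rule for named genes leaves out clone names. It is a transcribed processed pseudogene on chromosome 9 at 109827943 to 109832706 (minus strand), and reads of such a copy and of its parent gene can be exchanged. Its sums held 25 and 18 counts in cortex and 4659 and 3210 in hippocampus, or 0.281 and 0.234 against 11.1 and 8.40 CPM. The areas were far apart, and the gene rose by 5.24 log2 units (SE 0.33, adjusted p = 0.00337 in edgeR's quasi-likelihood test). A count was seen in 26.3% and 20% of the cortical and 31% and 23.4% of the hippocampal cells, ranges that overlapped. The median level in cells with a count was below 1 CPM in every suspension, whereas 1 cell held 28.3% and 27.6% of the hippocampal sums. Within the library PCR block that held cells of both areas the adjusted p was 0.490 at a difference of 4.53, with hippocampal cells drawn down it was 0.690 at 4.46, with the other subtypes in the fit 0.262 at 5.24 and with lower or no limits 0.136 to 0.745. In limma, on mean log values over cells, the difference was 3.16 (adjusted p = 0.0479).

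*Gfap* and *Agt*, the pair of genes the study used to recognise AST1 in tissue, both lay higher in hippocampus, and neither passed in the design reported. Both passed with the replicate block, in DESeq2, among genes in over 50% of cells of either area and with cells thinned, and *Gfap* also within library PCR block 1. Counts were in 24.6% and 32.7% of cortical cells for *Gfap* and in 42.1% and 43.6% for *Agt*. The genes thus passed the 50% limit only in hippocampus, where they were higher, so passing among those genes is no support. The study chose both genes on these samples, so they are not independent evidence of a direction. *Gfap* (chromosome 11, 102887336 to 102900912, minus strand) was at 221.1 and 417.0 CPM in cortex and 1177 and 1071 CPM in hippocampus. Both hippocampal sums were far above the cortical ones, which themselves stood apart. The difference was 1.82 (SE 0.29, adjusted p = 0.181, 1.77e-20 with the replicate block, 0.000470 within PCR block 1). It was 1.43 without cortical suspension 1 and 2.34 without cortical suspension 2, a gap that the p with the replicate block does not reflect. *Agt*, angiotensinogen, the precursor of angiotensin made by astrocytes in the brain (chromosome 8, 124556534 to 124569706, minus strand), was at 471.9 and 434.2 CPM against 918.8 and 940.8 CPM. Its areas did not overlap and each was tight, with a difference of 1.04 (SE 0.13, adjusted p = 0.0604, 9.04e-07 with the block). Counts of both genes together occurred in 12.3% and 16.4% of the cortical AST1 cells (Wilson intervals 6.08 to 23.2% and 8.86 to 28.3%) and in 48.0% and 52.6% of the hippocampal ones (42.1 to 53.9% and 46.6 to 58.4%). Neither gene had a count in 45.6% and 40% of the cortical cells and in 8.12% and 8.39% of the hippocampal cells. The cells of both areas thus carried the markers of astrocytes, whereas most cortical cells of the name did not have counts of both genes. A missing count does not show that the RNA was absent. The study's in situ mapping used another measure, high signal of both genes with *Slc1a3*, and found AST1 in the subpial layer as well as in hippocampus.

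The promoter windows of the 3 genes are shown because *Cd38* was the called gene that codes for a protein and *Gfap* and *Agt* are the study's pair for AST1, from 250 bases before to 50 bases after the RefSeq start (GRCm38.p6), 5′ to 3′ on the strand of the gene. These 3 motifs were searched on both strands: TTCNNNGAA, the letters of a STAT site, TTGGC, letters found in sites of nuclear factor I, and TATAAA, the TATA box. Capitals mark the matches. The windows lie at chr5:43868559-43868858 (plus strand) for *Cd38*, chr11:102897151-102897450 (minus strand) for *Gfap* and chr8:124569657-124569956 (minus strand) for *Agt*.
Cd38: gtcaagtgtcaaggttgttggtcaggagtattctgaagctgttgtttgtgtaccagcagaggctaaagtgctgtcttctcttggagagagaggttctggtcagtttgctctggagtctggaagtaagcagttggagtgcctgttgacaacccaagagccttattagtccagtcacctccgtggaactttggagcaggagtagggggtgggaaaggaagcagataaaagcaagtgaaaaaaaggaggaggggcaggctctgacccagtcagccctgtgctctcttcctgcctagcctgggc
Gfap: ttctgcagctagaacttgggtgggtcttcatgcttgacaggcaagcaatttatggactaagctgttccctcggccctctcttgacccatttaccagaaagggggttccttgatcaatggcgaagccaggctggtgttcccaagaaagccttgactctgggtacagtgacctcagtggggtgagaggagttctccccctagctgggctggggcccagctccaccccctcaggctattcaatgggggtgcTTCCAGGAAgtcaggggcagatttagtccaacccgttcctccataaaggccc
Agt: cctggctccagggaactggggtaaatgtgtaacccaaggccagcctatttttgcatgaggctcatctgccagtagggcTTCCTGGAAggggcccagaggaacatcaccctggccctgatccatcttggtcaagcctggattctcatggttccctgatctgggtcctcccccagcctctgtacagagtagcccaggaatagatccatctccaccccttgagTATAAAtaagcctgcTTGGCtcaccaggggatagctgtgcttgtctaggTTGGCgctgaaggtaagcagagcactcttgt
The window of *Gfap* held 1 TTCNNNGAA, that of *Agt* held 1 TTCNNNGAA, 2 TTGGC and 1 TATAAA, and that of *Cd38* held 0 of the 3 motifs. Over 32851 RefSeq promoter windows of this length, 8.3% held TTCNNNGAA, 46.7% TTGGC and 13.6% TATAAA. A match of letters does not show that a factor binds there.

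Other genes that lay higher in hippocampus were named because they had the smallest p, and none of them passed in the design reported. In DESeq2, 17 of the 20 named genes passed, all but *Tmem47*, *Prnp* and *Sirpa*, and among genes in over 50% of cells 8 of the 10 tested did. The named genes had been chosen for a small p on the same sums, so these passes are not independent support. Of the 20, 13 passed the limit of 25% of cells in both areas, and the other 7, *Cd38*, *Hist1h1c*, *Lama2*, *Eya1*, *Fzd2*, *Fars2* and *Chrdl1*, only in the area where they were higher. *Hsd11b1*, the enzyme that regenerates active glucocorticoid from its inert form, was at 911.7 and 726.7 CPM in cortex and 1542 and 1813 CPM in hippocampus. The areas stood apart (1.03, SE 0.15, adjusted p = 0.133, 4.56e-10 with the block, 0.0217 within PCR block 1). *Thrsp*, which encodes the thyroid hormone-responsive protein Spot 14 of lipid synthesis, was at 300.2 and 308.02 CPM against 723.8 and 665.0 CPM. Its suspensions agreed closely within each area (1.19, SE 0.14, adjusted p = 0.0604, 5.71e-07 with the block). A count of *Thrsp* was found in 54.4% and 54.5% of cortical and 68.6% and 66.4% of hippocampal cells, and its median in cells with a count was also higher in hippocampus, 774.0 and 761.6 against 542.7 and 566.7 CPM.

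*Tmem47*, a membrane protein of cell junctions, was at 719.7 and 706.1 CPM in cortex and 1059 and 1078 CPM in hippocampus (0.58, SE 0.11, adjusted p = 0.278). *Hist1h1c*, the linker histone H1.2, stood at 34.95 and 33.6 CPM against 96.1 and 84.8 CPM (1.40, SE 0.26, adjusted p = 0.278). For both genes the hippocampal pair lay close together and clear of the cortical pair. *Mgst1*, a membrane-bound glutathione transferase, had 78.8 and 89.8 CPM in cortex and 177.8 and 196.3 CPM in hippocampus. *Lama2*, the laminin alpha 2 chain of basement membranes, had 59.6 and 59.8 CPM against 126.2 and 138.4 CPM. *Eya1*, a phosphatase and transcriptional coactivator, had 44.3 and 59.4 CPM against 123.4 and 121.8 CPM. Each of these 3 genes lay higher in hippocampus without overlap, at log2 differences of 1.15, 1.15 and 1.24 and adjusted p of 0.278 each. With the block, *Lama2* alone of the 20 named genes did not pass (adjusted p = 0.0534). A single cell held 41.1% of the *Eya1* counts of cortical suspension 1.

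**Figure D2:**
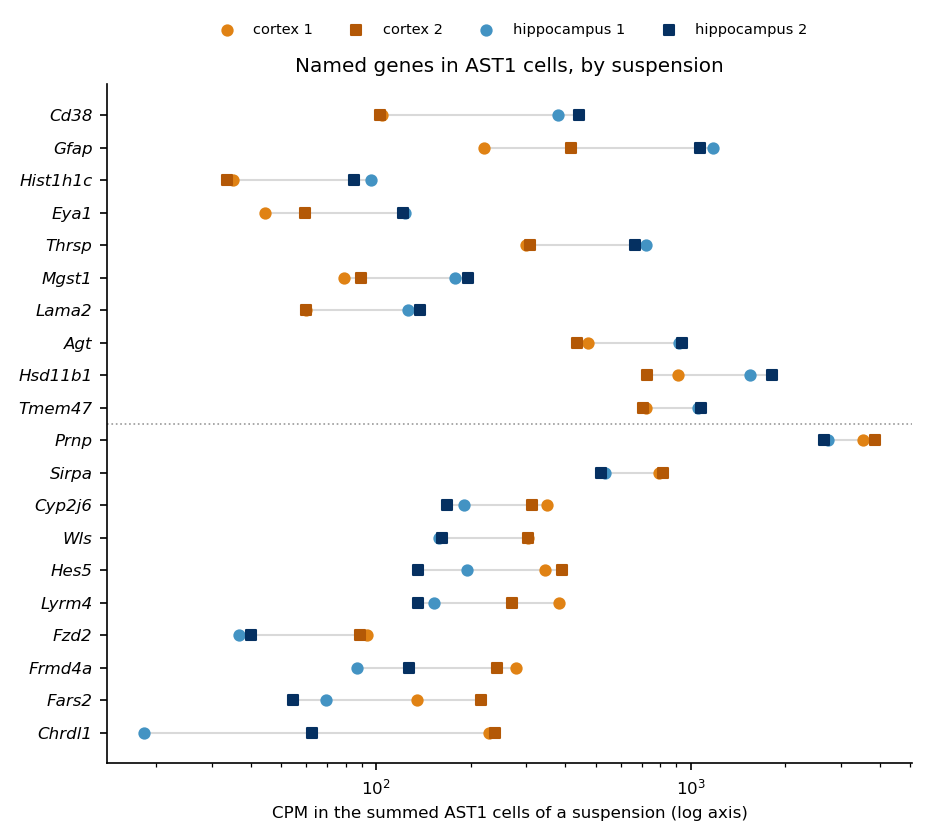
CPM of the 20 named genes in the summed AST1 cells of each suspension, on a log axis, with cortex in orange and hippocampus in blue; genes above the dotted line lay higher in hippocampus and genes below it lower. The orange and blue points do not overlap for any of the 20, which the rule required. *Chrdl1* spans the widest range, from 18.2 CPM in hippocampal suspension 1 to 238.3 CPM in cortical suspension 2. Part of that range lies between its hippocampal suspensions, which stand far apart.

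The 10 genes named for lying lower in hippocampus had an adjusted p of 0.278 each in the design reported, and none passed there. *Chrdl1*, a secreted BMP antagonist that astrocytes release and that promotes the maturation of synapses, had the largest difference. On these samples the study found this gene enriched in AST2, a mainly cortical subtype, so its direction is not independent evidence. It was at 228.2 and 238.3 CPM in cortex and 18.2 and 62.3 CPM in hippocampus (chromosome X, 143285674 to 143394262, minus strand). The cortical sums lay together, whereas the hippocampal sums were far from each other (−2.53, SE 0.55, adjusted p = 2.4e-10 with the block). The difference was −1.90 without hippocampal suspension 1 and −3.68 without hippocampal suspension 2. A count was seen in 36.8% and 25.5% of cortical AST1 cells and in 7.75% and 11.3% of hippocampal ones, and the median in such cells was 685.2 and 977.0 CPM against 58.4 and 476.1 CPM.

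Of the Notch pathway, *Hes5*, the transcriptional repressor that Notch signalling turns on, was at 345.1 and 390.9 CPM in cortex and 194.4 and 135.4 CPM in hippocampus (−1.16, SE 0.24, 0.00141 as adjusted p with the block). Of the Wnt pathway, *Fzd2*, a Wnt receptor, was at 93.9 and 89.1 CPM against 36.6 and 40.1 CPM (−1.25, SE 0.26, and −2.82 with an adjusted p of 0.0443 within PCR block 1). *Wls*, the carrier that brings Wnt proteins to the cell surface, was at 303.8 and 303.6 CPM against 158.3 and 162.5 CPM (−0.92, SE 0.19). All 3 lay lower in both hippocampal sums. *Prnp*, the cellular prion protein, was in nearly every cell of both areas and differed little, at 3541 and 3872 CPM against 2746 and 2659 CPM (−0.46, SE 0.09). *Sirpa*, the receptor of the CD47 signal, was at 796.0 and 814.5 CPM against 534.5 and 520.9 CPM (−0.61, SE 0.12).

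*Frmd4a*, a scaffold protein of cell polarity, was at 277.7 and 243.1 CPM in cortex and 86.97 and 127.3 CPM in hippocampus (−1.28, SE 0.27). *Cyp2j6*, a cytochrome P450, was at 348.7 and 312.9 CPM against 190.8 and 168.1 CPM (−0.88, SE 0.19). Their cortical cells were higher in both suspensions, without overlap. A pair of mitochondrial genes adjoin each other on chromosome 13. *Lyrm4*, a factor of iron-sulfur cluster assembly (35978395 to 36117526, minus strand), was at 381.8 and 270.7 CPM against 152.8 and 135.7 CPM (−1.18, SE 0.24). *Fars2*, the mitochondrial phenylalanyl-tRNA synthetase (36117412 to 36726280, plus strand), was at 134.7 and 216.2 CPM against 69.1 and 54.6 CPM (−1.51, SE 0.32, and −2.38 with an adjusted p of 0.0313 within PCR block 1). Their first bases overlap on opposite strands, and since the libraries do not mark the strand, reads from that overlap cannot be given to either gene.

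The depth of the cells was similar in both areas. The median AST1 cell had 1520068 and 1457160 gene counts in cortex and 1493806 and 1367356 in hippocampus (exact permutation test of the suspensions, two-sided, p = 0.667), and 2 suspensions against 2 cannot give a p below 0.333. With every cell thinned to 50000 counts, *Gfap* had a count in 22.8% and 32.7% of cortical and 70.8% and 70.4% of hippocampal cells, against 24.6%, 32.7%, 72.7% and 75.2% before. *Cd38* after thinning was in 15.8%, 14.5%, 44.6% and 48.2% of the cells in the same order. The areas stayed apart for both genes. Cortical cells had counts on 2089 and 1801 genes at the median and hippocampal cells on 1969 and 2003.5 (p = 1), and the log2 ratio of gene counts to counts of the ERCC control RNAs was 4.43 and 4.25 against 4.29 and 4.34 (exact permutation test, p = 1). A technical measure that did separate the areas was the share of counted reads outside exons, 11% and 10.6% in cortex and 13.2% and 12.95% in hippocampus (difference 2.29 percentage points, exact permutation test, two-sided, p = 0.333, the smallest possible). Its part in the gene differences was not tested.

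**Figure D3:**
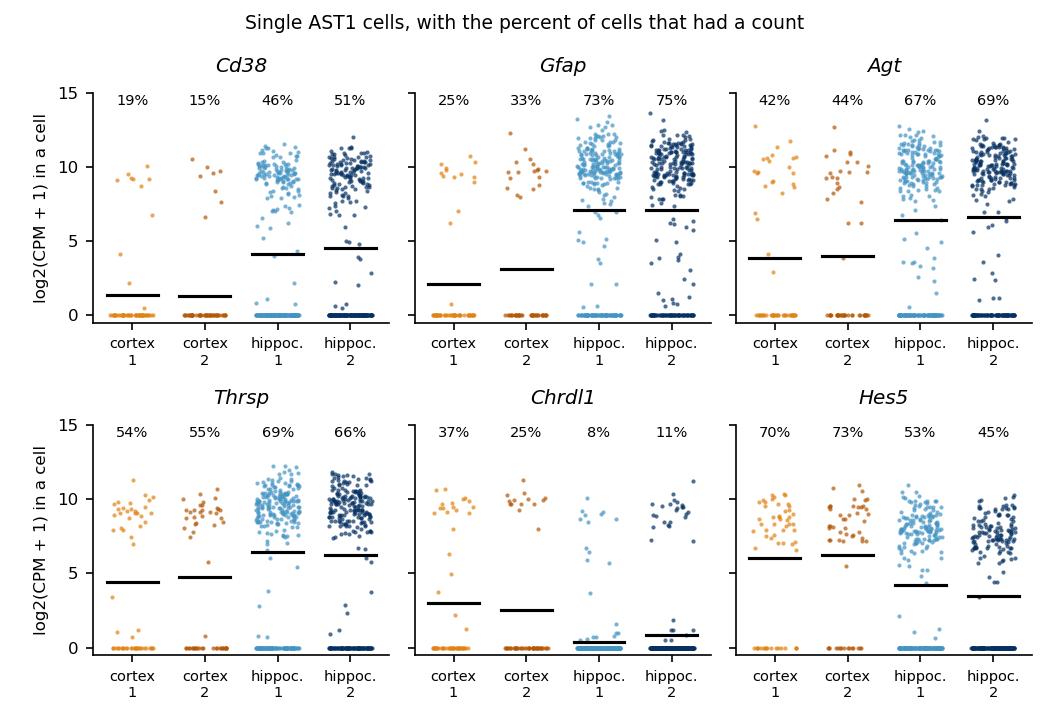
Log2(CPM + 1) of 6 genes in single AST1 cells by suspension, each point a cell, with the mean over cells as a black bar and the percent of cells with a count above it. *Cd38*, *Gfap*, *Agt* and *Thrsp* had more cells with a count in hippocampus, and *Chrdl1* and *Hes5* had more in cortex. Among cells with a count, the median of *Thrsp* was also higher in hippocampus and that of *Chrdl1* in cortex.

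Gene lists of astrocyte function gave few calls. In 50 lists, *Cd38* was the only member called, and it came from the study's own table of AST1 markers. With the replicate block, the members called in lists other than the study's marker tables were *Gfap*, *Agt*, *Hsd11b1*, *Thrsp*, *Sparc*, *Pfkp*, *Cnp* and the synaptic adhesion gene *Nlgn1* (1.27, adjusted p = 0.0339 with the block) in the higher direction and *Chrdl1*, *Hes5*, *Fzd2*, *Mfge8* and *Nr1d2* in the lower. The shares to read the lists against are the 21.9% of all genes above and 19.6% below without overlap, and the median of −0.01. Some lists stood further from these shares. Of 6 axon guidance genes tested 4 lay above and 0 below. Of 17 genes that the study names for AST1 or for an area, in part from these samples, 11 lay above and 2 below. List members with an unadjusted p under 0.05 that are named below were in part chosen after their values were seen.

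Among regulators of BMP signalling, 8 of 19 genes were tested, 0 were called, and 4 lay below without overlap against 1 above, with a median of −0.24. The Id proteins are transcriptional inhibitors that BMP signalling turns on. *Id2* was at 1236 and 1244 CPM in cortex and 951.4 and 978.3 CPM in hippocampus (−0.36, SE 0.10, adjusted p = 0.328). *Id3* was at 968.7 and 1154 CPM against 808.2 and 680.9 CPM (−0.51, SE 0.15, adjusted p = 0.328), and *Id1* at 128.8 and 124.3 CPM against 79.7 and 65.03 CPM (−0.81, adjusted p = 0.338). These 3 and *Chrdl1* had the 4 unadjusted p under 0.05 of the list, all in the lower direction, while *Id4* overlapped between areas at 166.4 and 252.5 against 197.2 and 187.1 CPM.

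In the Notch list 5 of 16 genes were tested, with 2 below, 1 above and a median of −0.50. The receptor *Notch2* lay above, at 242.9 and 166.8 CPM in cortex and 286.2 and 345.3 CPM in hippocampus (0.62, SE 0.24, adjusted p = 0.416), and the receptor *Notch1* below, at 115.1 and 166.4 CPM against 100.3 and 98.8 CPM (−0.50, SE 0.28). The pathway thus held values in both directions. Of the 9 Wnt genes tested out of 28, 5 lay below and 3 above without overlap (median −0.13). *Dkk3*, a secreted relative of the Dickkopf inhibitors, was at 605.3 and 671.4 CPM against 453.5 and 396.1 CPM (−0.59, SE 0.15, adjusted p = 0.320, and −1.31 with an adjusted p of 0.0313 within PCR block 1). Of 6 FGF genes tested, 2 lay below and 0 above, with a median of 0.03. Among them *Fgfr3*, an FGF receptor of astrocytes, was at 1252 and 1326 CPM against 903.4 and 959.9 CPM (−0.47, SE 0.11, adjusted p = 0.299).

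Of 18 forebrain transcription factors tested, 5 lay above and 7 below without overlap and 0 were called (median −0.10), or with the block 1 lower, *Hes5*. *Nfia*, a nuclear factor I gene that sets astrocyte fate, was at 235.4 and 176.4 CPM in cortex and 320.8 and 321.6 CPM in hippocampus (0.64, SE 0.21, adjusted p = 0.357), and its relative *Nfib* at 130.4 and 61.2 CPM against 177.97 and 186.8 CPM (0.93, SE 0.38, adjusted p = 0.442, and 1.57 without cortical suspension 1 or 0.48 without cortical suspension 2). *Meis2*, a homeodomain factor, lay below, at 96.0 and 47.5 CPM against 29.2 and 30.6 CPM (−1.26, SE 0.38, adjusted p = 0.333), with the cortical suspensions far apart. *Zbtb20*, a repressor that shapes the hippocampus, was at 539.0 and 604.8 CPM against 664.0 and 687.1 CPM, without overlap.

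Of 7 glutamate uptake genes tested, 2 lay above and 1 below (median −0.06). *Slc1a2*, the transporter GLT-1, was at 4183 and 5146 CPM in cortex and 5571 and 5813 CPM in hippocampus (0.29, SE 0.11, adjusted p = 0.416), and *Glul*, glutamine synthetase, at 1347 and 1007 CPM against 1069 and 1061 CPM. Of 13 genes of potassium, sodium and bicarbonate handling, 4 lay above and 4 below without overlap (median 0.16), and *Atp1b3*, a beta subunit of the sodium pump, had the largest difference (68.96 and 104.8 CPM against 168.5 and 177.9 CPM, 1.00, adjusted p = 0.331). Of 11 connexin and endfoot genes, 9 overlapped, 2 lay above and 0 below (median 0.05). The water channel gene *Aqp4* was among those that overlapped, at 1646 and 2035 against 1886 and 1719 CPM (−0.03, SE 0.13).

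In glycolysis, 21 of 25 genes were tested, 7 lay above, 3 below and 11 overlapped (median 0.05). *Pfkp*, a phosphofructokinase, was at 246.5 and 198.8 CPM in cortex and 417.8 and 376.6 CPM in hippocampus (0.84, SE 0.19, adjusted p = 0.299, 0.0359 with the block). Of 24 genes of cholesterol and fatty acid synthesis, 18 overlapped, 2 lay above and 4 below (median −0.07). *Fasn*, fatty acid synthase, was at 282.6 and 320.6 CPM against 193.3 and 212.9 CPM (−0.57, SE 0.19, adjusted p = 0.359). Of 12 lipoprotein genes 6 lay above and 1 below (median 0.16), among them *Dbi*, the acyl-CoA binding protein (632.8 and 548.8 CPM against 813.0 and 844.0 CPM, 0.49, SE 0.13, adjusted p = 0.328), and *Apoe* was at 36259.7 and 41117 against 42396 and 42636 CPM (0.14, SE 0.07).

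The 9 tested genes of metal and stress hormone response had a median of 0.24, with 4 above and 1 below. *Mt1*, a metallothionein, was at 1317 and 1255 CPM in cortex and 1686 and 1664 CPM in hippocampus (0.38, SE 0.10, adjusted p = 0.320). *Tsc22d3*, a target of the glucocorticoid receptor, lay the other way, at 488.4 and 408.5 CPM against 292.6 and 293.6 CPM (−0.61, SE 0.17, adjusted p = 0.328), although *Hsd11b1* lay higher. Of 10 clock genes, all stood apart between areas, 4 above and 6 below (median −0.20). The study's methods state that the areas were prepared independently, at roughly matching times of day. Whether collection time had a part in these differences was not tested. *Nr1d2*, the clock repressor REV-ERB beta, was at 176.9 and 180.05 CPM against 94.9 and 52.3 CPM (−1.28, SE 0.34, adjusted p = 0.320, 0.0183 with the block). Only 3 of the 31 genes of the immediate early and dissociation response had a count in enough cells to be tested, and 0 lay above, with 1 below.

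Secreted regulators of synapses held values on both sides, 4 above and 2 below of 14 tested (median 0.01). *Sparc*, a secreted antagonist of the synapse-inducing protein hevin, was at 252.3 and 182.5 CPM in cortex and 361.7 and 436.0 CPM in hippocampus (0.88, SE 0.22, adjusted p = 0.320, 0.0273 with the block). *Mfge8*, a bridging protein of phagocytosis, was at 8110.0 and 10021 CPM against 6386 and 6948 CPM (−0.44, SE 0.11, adjusted p = 0.320, 0.000842 with the block), and 3 of the 12 phagocytosis genes lay above with 2 below. Of 17 adhesion genes of synapses, 11 overlapped, 4 lay above and 2 below (median 0.10). The 77 ribosomal protein genes tested had a median of 0.00 and the 77 nuclear genes of the respiratory chain −0.01, with 16 and 15 above and 10 and 14 below.

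**Figure D4:**
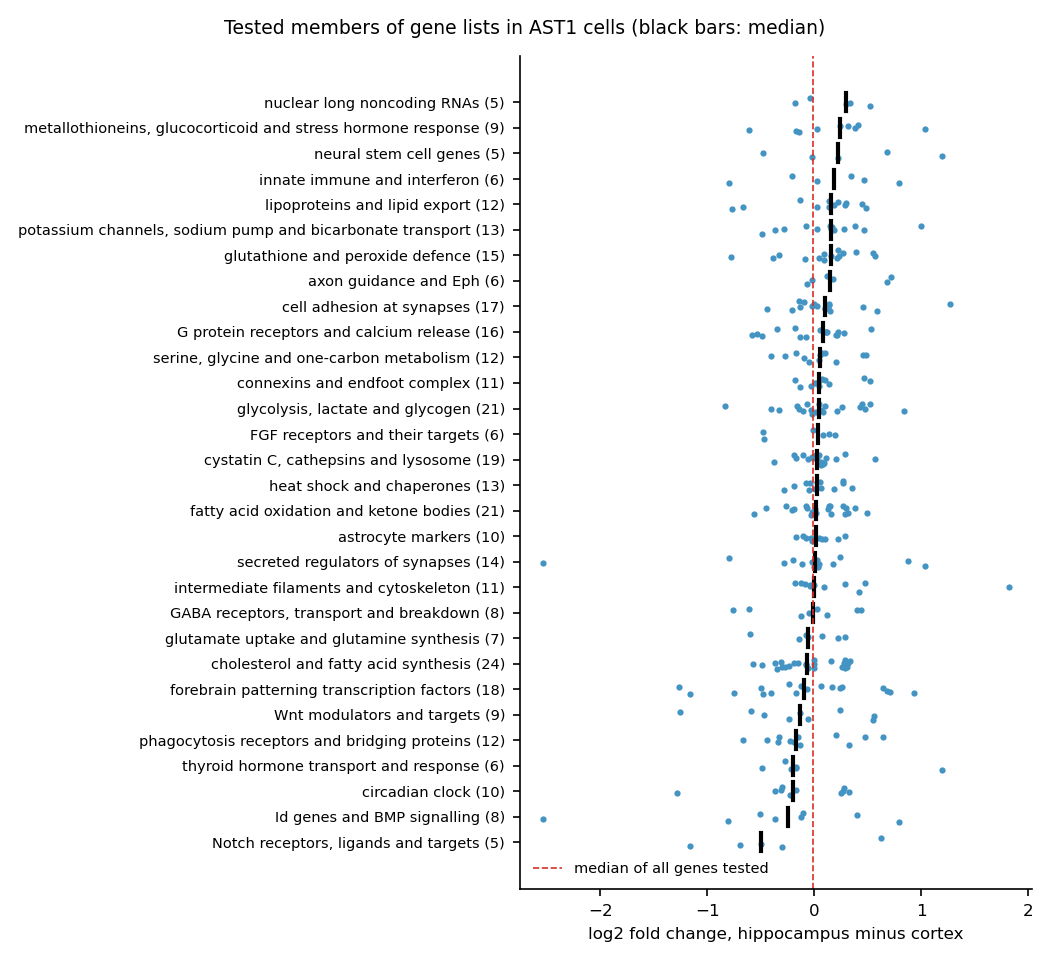
Log2 fold change between areas (hippocampus minus cortex) of every tested member of 30 gene lists in AST1 cells, each point a gene, with the list's median as a black bar, the number tested in brackets and the median of all genes as a dashed red line. Medians run from −0.50 for the Notch list to 0.30 for nuclear long noncoding RNAs, each of 5 genes, and the points of nearly every list lie on both sides of 0.

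The study's marker tables were drawn up on these samples, so their counts are not independent evidence of a direction. Of 37 genes in the AST1 table, all were tested, 1 was called, 19 lay above and 2 below without overlap, and the median was 0.22; with the replicate block 7 were called higher. Of the tested genes of the AST2 table, a subtype that was mostly cortical, 16 lay above, 44 below and 47 overlapped (median −0.16) and 0 were called, or 4 lower and 0 higher with the block. Of 24 genes tested from the AST3 table, 6 lay above and 6 below (median −0.05), and with the block 2 were called higher and 1 lower. Hippocampal AST1 cells thus had higher values of more genes of the AST1 table, and cortical AST1 cells of more genes of the AST2 table, than the other way round.

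AST3 was the other subtype with over 50 cells in every suspension, the fewest being 65 and 82 in the hippocampal ones, and its cells came from the same suspensions as AST1. In a fit of its own, 54 of 3445 genes were called higher in hippocampus and 29 lower. *Cd38* was at 121.8 and 91.8 CPM in cortical and 438.9 and 553.1 CPM in hippocampal AST3 cells, a difference of 2.22 (adjusted p = 0.00375) beside 1.99 in AST1. The difference in AST1 minus that in AST3 was −0.23 (adjusted p = 0.852 in edgeR's quasi-likelihood test of the interaction), so that the test did not call this difference particular to AST1. *Gfap* differed by 1.53 in AST3 and 1.82 in AST1 (interaction 0.35, adjusted p = 0.733), *Chrdl1* by −2.57 and −2.53 (interaction −0.11, adjusted p = 0.993). Counts of *Gfap* and *Agt* together occurred in 17.5% and 19.9% of cortical and 47.7% and 43.9% of hippocampal AST3 cells (Wilson intervals 12.3 to 24.3%, 14.3 to 26.9%, 36.02 to 59.6% and 33.7 to 54.7%). *Thrsp* was at 365.9 and 345.8 CPM in cortex and 388.9 and 362.99 CPM in hippocampus in AST3 (0.08), yet its interaction did not pass (1.12, adjusted p = 0.219).

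**Figure D5:**
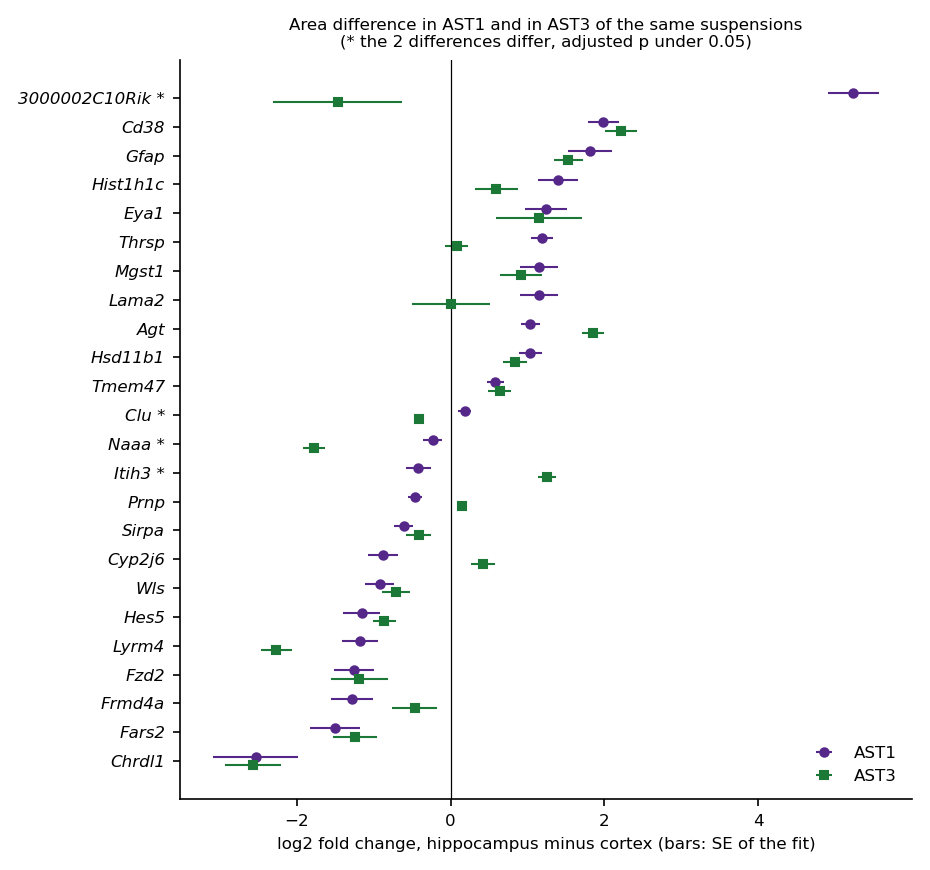
Log2 fold change between areas (hippocampus minus cortex) in AST1 (purple circles) and in AST3 cells of the same suspensions (green squares) for the 20 named genes, *3000002C10Rik* and the other genes with an interaction that were tested in both, with bars for the SE of the fit; an asterisk marks an interaction with an adjusted p under 0.05. *Cd38*, *Gfap* and *Chrdl1* lie side by side in both subtypes, whereas *Naaa* lies further below 0 in AST3 than in AST1, and *Itih3* and *Clu* lie on opposite sides of 0 in the subtypes.

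The area difference itself differed between AST1 and AST3 for 6 of 3445 genes tested, 5 more positive in AST1 (0.145%) and 1 more negative (0.029%). In edgeR 0 genes passed when cortical suspension 1 or 2 was left out (11.5% and 8.39% at an unadjusted p under 0.05), and 1 gene passed with equal numbers of cells. *Naaa*, an acid amidase that breaks down N-acylethanolamine lipids, was at 871 and 846 CPM in cortical and 691 and 764 CPM in hippocampal AST1 cells, and at 654 and 678 CPM in cortical AST3 cells against 201.7 CPM or less in both hippocampal suspensions, all scaled over the 8 sums. AST1 cells kept most of their level in hippocampus and AST3 cells did not (interaction 1.55, SE 0.18, adjusted p = 0.0329). *Itih3*, a heavy chain of the inter-alpha-trypsin inhibitors that bind hyaluronan, was at 521 and 630.0 CPM against 398 and 457 CPM in AST1, and at 376.7 and 375.5 CPM against 840.3 and 935 CPM in AST3 (interaction −1.66, SE 0.20, adjusted p = 0.0329). In AST1 it was somewhat lower in hippocampus, and in AST3 it was higher. *Clu*, clusterin, a chaperone and lipoprotein of astrocytes that every cell contained, was at 16882 and 19672 CPM against 20176 and 21130 CPM in AST1, and at 14654 and 15492 CPM against 10625 and 11813 CPM in AST3 (interaction 0.61, SE 0.07, adjusted p = 0.0329). In reverse transcription block 3 alone, the AST1 differences of *Itih3* and *Clu* changed sign, to the sign seen in AST3 over all cells. The interaction was not fitted in that block.

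The other genes with an interaction were low in AST1 cells of cortex. *Olig2*, a transcription factor of the oligodendrocyte lineage that some astrocytes express, had 0 and 1 counts in the cortical AST1 sums and 11032 and 14538 in the hippocampal ones. It was in 0 of 57 and 1 of 55 cortical cells, and in 8.86% and 11.7% of the hippocampal cells, and 0 of 57 cells allows a share of up to 5.26%. It entered the test of the interaction only through the hippocampal AST3 cells, where it was highest, so its call supports nothing on its own. Too few cells had a count for a test in AST1 alone, and the size of the fitted interaction (adjusted p = 0.0114) is no bound, because the cortical counts are at or under 3. In AST3 it was in 8.44% and 12.6% of cortical and 32.3% and 32.9% of hippocampal cells. *Zfp385a*, a zinc finger protein, was at 1.01 and 1.08 CPM against 4.21 and 5.24 CPM in AST1 and at 12.9 and 14.6 CPM against 6.80 and 6.30 CPM in AST3 (interaction 3.24, SE 0.42, adjusted p = 0.0343). It too entered the test only through the group where it was highest, the cortical AST3 cells, with a count in 31.2% and 26.5% of them. *3000002C10Rik* was at 12.7 and 4.00 CPM against 5.24 and 0.74 CPM in AST3, where the suspensions of an area differed widely (interaction 7.08, SE 0.91, adjusted p = 0.0343). It entered the test only through hippocampal AST1 and cortical AST3 cells, the groups where it was higher in each subtype, so this call too supports nothing on its own.

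Batches were followed through the labels of the cells. All cortical AST1 cells had been amplified in library PCR block 1, and 38 and 36 of the hippocampal cells in that block, the others in block 2. Restricted to block 1, 8 genes were called, 4 in each direction, and 5 of the 20 named genes passed, *Cd38*, *Hsd11b1*, *Gfap*, *Fzd2* and *Fars2*. The cortical sums there were the same as those on which the named genes had been chosen, so these passes are not independent support. *Cd38*, *Fzd2* and *Fars2* had also entered the test only through the area where they were higher. Within that block *Cd38* differed by 1.93 (adjusted p = 0.0124), *Hsd11b1* by 0.99 and *Gfap* by 2.10, beside 1.99, 1.03 and 1.82 over all cells. The differences of *Fzd2* and *Fars2* were larger there, −2.82 and −2.38 beside −1.25 and −1.51. With the replicate number as a block, which stands for shared library preparation dates, 19 of the 20 named genes were called, against 1 in the design reported. The 20 had been chosen on the same sums, so these calls are not independent support. Leaving out cortical suspension 1 brought calls to 5.67% of the genes and leaving out cortical suspension 2 to 0.965%, whereas without hippocampal suspension 1 or 2 they were 6 and 4 genes. In such a fit the lone suspension is assumed to vary like those of the other area. All 20 named genes kept their direction in each of these fits. With the replicate block or with a suspension left out, the naming rule of no overlap between areas fixed this in advance.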

How the data were processed

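Libraries of single cells were made with Smart-seq2. Per the study's methods and the submitters' processing notes, the authors checked the reads with FastQC 0.11.4, mapped them with STAR 2.5.2b to GRCm38.p5 and had HTSeq count the unique ones by gene. What they deposited are counts for 49671 genes in every cell, neither normalized nor pooled; 49412 genes were given a symbol. Reads outside exons, reads on more than 1 gene and ERCC counts were left out of totals and tests. Subtypes were taken from the study's list of cells, in which 33 cells with counts do not appear. Raw counts of AST1 cells were summed per suspension, and genes with a count in over 25% of cells of either area were compared in edgeR 4.0.16 (R 4.3.3) with TMM normalization and a robust quasi-likelihood fit (2 residual degrees of freedom, biological coefficient of variation 0.229), adjusted by the Benjamini-Hochberg method over 2488 genes. The interaction with AST3 was fitted on 8 sums with the suspension as block. Single values were compared by exact permutation of the suspensions. The labels tie same-numbered suspensions of the areas to shared library preparation dates (14 of 18 dates held AST1 cells of both areas, each with a single number), while the deviations of the suspensions numbered 1 from their area means had a correlation of −0.00941 over genes; both fits are given.

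The members and the gene lists were chosen with earlier results of these data known. Named genes are the called ones with a mean of at least 20 CPM, no overlap between areas and no clone or predicted-gene name, filled up by smallest p to 10 in each direction, then up to 4 members per list, the genes the study names, and called interactions. Alternatives covered normalization, DESeq2 1.42.0, limma 3.58.1, filters on low counts, numbers of cells, thinning to 50000 counts, batches, the block and each suspension left out, and 5 batch subsets were added after the data had been seen. The test was tried on simulated counts. Promoters came from RefSeq tables of GRCm38.p6, in which all 3 genes looked up were found. In fits between areas without a block, p-values measure the spread between suspensions, 2 per area where none was left out. The fit of AST1, AST2 and AST3 together took the sums of a suspension as independent. For the interaction, p-values measure how far the difference between the subtypes varied among suspensions of an area. With the replicate block fewer residual degrees of freedom remain, and its very small p-values are no measure of the spread between suspensions. Intervals and floors cover counting error only, since reads are not independent molecules.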

Additional observations from a re-analysis of the deposited data

Results flagged for a closer look

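The area difference in AST1 differed from that in AST3 of the same suspensions, by the interaction term of edgeR's quasi-likelihood fit with the suspension as block, for 6 genes. On the log2 scale the difference between the differences was 1.55 for *Naaa*, −1.66 for *Itih3*, 0.61 for *Clu*, 3.24 for *Zfp385a* and 7.08 for *3000002C10Rik*. For *Olig2* the fitted value was 9.74, which gives no size because the cortical AST1 sums held 0 and 1 counts. *Olig2* and *Zfp385a* entered the test only through the group where each was highest, and *3000002C10Rik* only through the area where it was higher in each subtype, so these calls are given as values alone. Only 3 of these genes had a count in many cells of each subtype and area, *Naaa*, *Itih3* and *Clu*. Without cortical suspension 1 or 2, 0 interactions passed, and without hippocampal suspension 1 or 2, 12 passed in each case, the 6 genes among them. With each subtype and suspension drawn down to 55 cells, 1 passed.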

How the results depend on the processing

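Of the 2488 genes, 2 (0.0804%) were called in the design reported, and the same 2 genes were called with RLE normalization, with library totals alone, without robust dispersion and without cells that had a delay before PCR. The share called was 3.30% in DESeq2, 0.0402% in limma, 0.241% with cells thinned, 0.121% with hippocampal cells drawn down, 0.322% in library PCR block 1 and 2.09% with the replicate block. With other filters it was 0.994% of genes in over 50% of cells, and 0 among genes in over 10% of cells, under filterByExpr and without a filter, where 8.34%, 13% and 5.89% had an unadjusted p under 0.05 in edgeR. It was 0 with AST1, AST2 and AST3 in 1 fit (6.07% at an unadjusted p under 0.05). With 1 suspension left out it was 0.161% to 5.67%, the highest without cortical suspension 1. In subsets added after the data had been seen, it was 0 in reverse transcription blocks 1, 2 and 3 and with a switching oligo never thawed (6.59%, 6.91%, 5.23% and 6.51% at an unadjusted p under 0.05), and 0.0804% with one thawed once. Interactions with AST3 were 0.174% of genes, 0.116% without the replicate block, 3.39% of genes in over 50% of cells, 0.029% with equal numbers of cells and 0 to 0.348% with 1 suspension left out. The cause of these changes was not tested.

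All 20 genes named by the rule kept their direction under each alternative in which they were tested, and 10 of them were not tested among genes in over 50% of cells. For alternatives on the same sums, or with 1 suspension left out, the rule of no overlap fixed this in advance, so it is no support. The genes that changed sign were not called between areas in the design reported, although *Clu* and *Itih3* among them had a called interaction. Values are log2 differences in AST1. *Aldoc* was at 0.0073 without a filter, 0.027 with hippocampal cells drawn down, 0.0086 with cells thinned and 0.074 in reverse transcription block 3. In that block *Clu* was at −0.14, *Apoe* at −0.058, *Cnp* at −0.17 and *Itih3* at 0.44. In library PCR block 1 *Zbtb20* was at −0.23 and *Aqp4* at 0.031, and in reverse transcription block 2 *Aqp4* was at 0.28. *Id4* was at 0.00051 without delayed cells, 0.16 in reverse transcription block 1 and 0.13 with the oligo thawed once. With 1 suspension left out, *Aldoc* ran from −0.056 to 0.015, *Glul* from −0.35 to 0.080, *Aqp4* from −0.18 to 0.12 and *Id4* from −0.39 to 0.20. All but 27 list medians under the alternatives moved by less than the spread between suspensions, as did all but 3 of 36 single values. With 2 suspensions per area and 57 and 55 cortical cells, genes in few cells are limited by single cells of high count, and a p that missed the threshold does not show that the areas were alike.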

Other observations

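Further lists, described by the values of their members, gave 0 calls. Their counts are to be read against the 21.9% of all genes tested that lay above and the 19.6% that lay below without overlap. Of 8 tested genes of GABA signalling, 2 lay above and 3 below in hippocampus without overlap (median −0.02), among them *Abat*, the enzyme that breaks down GABA, at 343.5 and 412.3 CPM in cortex and 239.6 and 255.4 CPM in hippocampus (−0.61, SE 0.18, adjusted p = 0.333 in edgeR's quasi-likelihood test). Of 16 genes of G protein receptors and calcium release, 5 lay above and 4 below (median 0.08), with *S1pr1*, a sphingosine 1-phosphate receptor, at 3621 and 3919 CPM against 2945 and 2968 CPM (−0.35, SE 0.09, adjusted p = 0.320). Of 15 genes of glutathione and peroxide defence, 4 lay above and 3 below (median 0.15). *Gstm1*, a glutathione transferase, was at 2220.0 and 2244 CPM against 2941 and 2909 CPM (0.39, SE 0.09, adjusted p = 0.278), and *Prdx6*, a peroxiredoxin, lay the other way, at 5286 and 4821 CPM against 4099.9 and 3959 CPM (−0.33, SE 0.09, adjusted p = 0.320). Of 19 lysosomal genes 16 overlapped, 3 lay above and 0 below (median 0.02), and of 13 chaperones 9 overlapped (median 0.02).

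Of 6 immune genes tested, 3 lay above and 1 below (median 0.19), *B2m*, the light chain of MHC class I, being at 84.8 and 111.4 CPM in cortex and 169.4 and 170.6 CPM in hippocampus (0.79, SE 0.26, adjusted p = 0.350). The 17 tested genes of the mitochondrial genome had a median of 0.02 with 5 above and 5 below. Of 3 imprinted genes tested, *Nnat*, a neuronatin gene of calcium handling, was at 284.3 and 213.03 CPM against 406.9 and 385.6 CPM (0.67, SE 0.20, adjusted p = 0.333). *Impact*, a regulator of translation, lay the other way, at 259.95 and 275.2 CPM against 175.6 and 171.2 CPM (−0.63, SE 0.20, adjusted p = 0.338). In both areas genes of the Y chromosome were present in the AST1 sums of every suspension.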
